A study of Rattus norvegicus with 30 samples.

Results

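The plantaris tendons of rats given vehicle for 7 days after tenotomy and repair (7D 0 mg/kg tendons, 5 rats) were compared to the plantaris tendons of uninjured rats (control tendons, 3 rats), by RNA sequencing of the whole tendon. These 8 tendons were taken by their labels from the 30 of the series, which also holds tendons of rats given the HPGDS inhibitor GSK2894631A and tendons at 21 days. All were 3-month-old male Sprague Dawley rats. In the repaired rats both plantaris tendons were cut through in the midsubstance and sutured at once by a Bunnell technique. The Achilles tendon was left whole as a stress shield. Vehicle (hydroxypropyl methylcellulose with Tween 80) was given by oral gavage more than once each day. Control rats had neither surgery nor the test compound, so surgery, anaesthesia, analgesia, gavage and vehicle cannot be told apart in this comparison. The tendons came from separate rats. The right tendon was cut between the myotendinous junction and the calcaneus, a dissection meant to leave muscle and bone behind, and it was minced whole. A bulk sample gives one value per gene for all cells in the piece, so fewer cells of a type and less RNA per cell cannot be told apart.

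A healthy tendon holds few cells, mostly fibroblasts called tenocytes, between dense parallel fibrils of type I collagen. After a cut, blood-borne cells enter, fibroblasts divide and lay down a provisional matrix rich in type III collagen, and this scar is remodelled over the following weeks. The plantaris tendon joins its muscle at the myotendinous junction, and muscle fibres carry some of the most abundant messenger RNAs of the body, so a small amount of muscle tissue in a tendon sample adds many reads.

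Each control library summed to between 20446525 and 31659102 counts over 13124 genes, and each 7D 0 mg/kg library to between 31527157 and 38449256. At these depths 3 counts corresponded to 0.0780 to 0.147 CPM (counts per 1000000 in a library, before TMM scaling). One of the 3 control tendons stood apart. In control replicate 4 the ranks of gene levels had a Spearman correlation of 0.925 and 0.930 with those of replicates 2 and 3, which had 0.978 with each other, and pairs of 7D 0 mg/kg tendons lay between 0.966 and 0.982. Collagen genes took 0.807% of its counts, compared to 3.50% and 2.73% in control replicates 2 and 3. Values without this tendon are therefore given beside the results that rest on it. Below, values of single tendons are TMM-scaled CPM, with control replicates in the order 2, 3 and 4 and 7D 0 mg/kg replicates (named as at 7 days) in the order 1 to 5.

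Of 12558 genes tested, 3636 (29.0%) rose and 3472 (27.6%) fell from control to 7D 0 mg/kg tendons by 1.5-fold or more with a Benjamini-Hochberg adjusted p under 0.05 by the quasi-likelihood test of edgeR. Levels of the groups did not overlap for 3916 genes (31.2%) in the higher direction and for 3855 (30.7%) in the lower direction. Without control replicate 4, 3048 genes were higher and 3354 lower. These counts rest on TMM, which sets most genes to no change: the median log2 fold change over all genes was 0.05. With library size alone it was 0.64, and 6330 genes were higher and 1925 lower, so higher genes made up 76.7% of the calls in place of 51.2%. All log2 fold changes below are on the TMM scale, and adjusted p are from edgeR. Several gene lists had far larger shares of higher or lower members than all genes had, and others were near them, as the plot of list members shows. Among genes without overlap, the 10 largest increases with at least 10 CPM in 7D 0 mg/kg tendons were Acod1, Cxcl6, Tnn, Cxcl3, Mmp12, Mmp9, Mmp13, Spp1, Cdhr1 and Ccl9, most of them secreted proteins of inflammation or matrix.

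**Figure D1:**
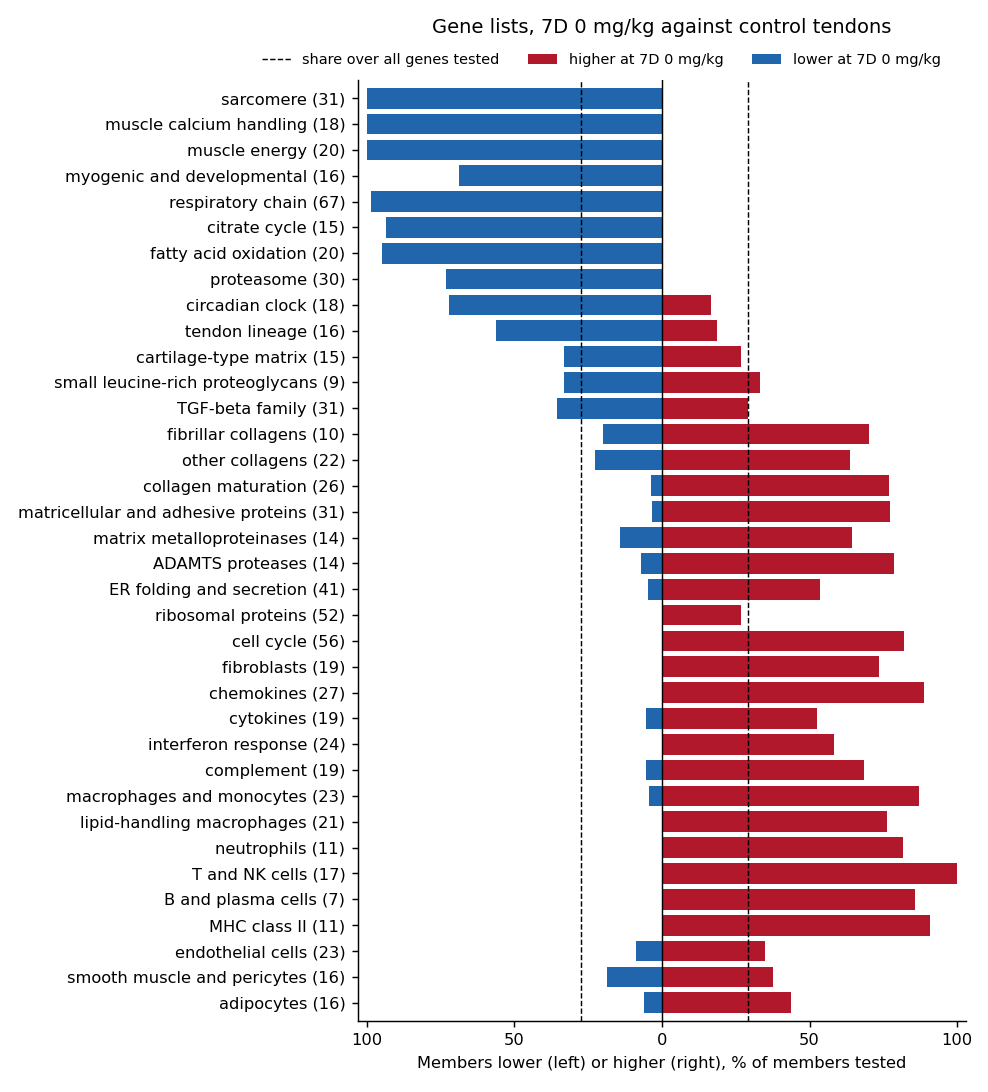
Share of the members of each gene list that were lower (blue, left) or higher (red, right) in 7D 0 mg/kg than in control tendons, in percent of the members tested (number in parentheses). Dashed lines mark the shares over all genes tested, 27.6% lower and 29.0% higher. The 3 lists of muscle fibre genes at the top were lower in full, and lists of collagen, protease, cell cycle and immune genes lie to the right.

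Genes of skeletal muscle fibres took a far smaller share of counts in the repaired than in the control tendons. How much muscle was cut in with the tendon, dilution by RNA of other cells and loss of muscle RNA cannot be told apart in such a share. Genes of the sarcomere and Z-disc, the contractile unit of muscle fibres, held 16.96, 17.05 and 22.21% of all counts in control tendons and 0.507, 1.10, 0.169, 0.891 and 0.198% at 7 days. Every control tendon was thus above every 7D 0 mg/kg tendon, and within the 7D 0 mg/kg group replicates 2 and 4 held the most and replicates 3 and 5 the least. The mean share was 18.7% ± 3.01 (SD, n = 3) compared to 0.572% ± 0.413 (SD, n = 5), 32.8-fold lower (exact two-sided permutation test, p = 0.0357, the smallest that 56 splits can give). Without control replicate 4 the control mean was 17.0% and the decrease 29.7-fold, where 21 splits cannot go below 0.0952.

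**Figure D2:**
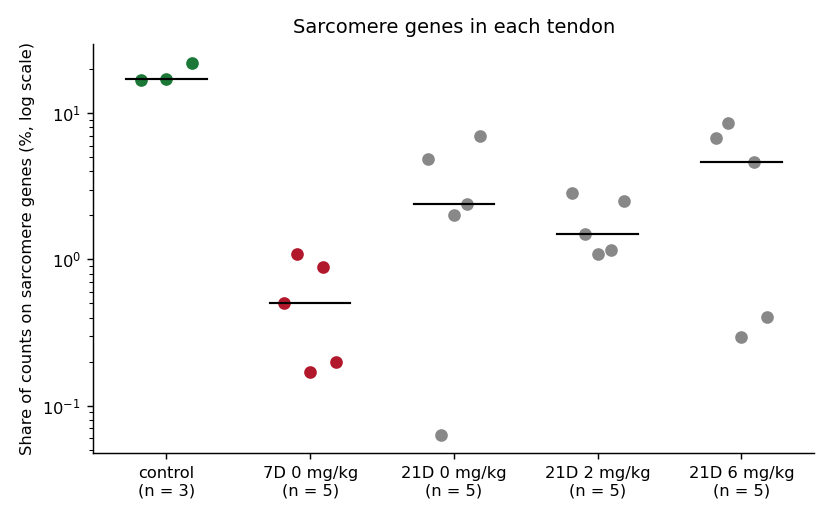
Share of counts on 31 sarcomere genes in each tendon (points, percent, log axis) with the median of each group (line). The 3 control tendons sit between 16.96 and 22.21%, the 5 tendons at 7 days between 0.169 and 1.10%, and the 15 tendons at 21 days spread from 0.0631 to 8.53%.

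All 31 sarcomere genes tested were lower, compared to 27.6% of all genes, with a median log2 fold change of -5.58 and a range from -6.15 to -4.07, and none of the 31 overlapped between the groups, compared to 30.7% of all genes without overlap in this direction. Skeletal muscle actin Acta1 (ENSRNOG00000017786, chromosome 19) was counted at 41630, 35680 and 72820 CPM in control and 640.8, 2060, 187.8, 1721 and 387.5 CPM at 7 days. The fast myosin heavy chain Myh4 (ENSRNOG00000049695, chromosome 10) was counted at 54470, 49910 and 50360 CPM in control and 749, 1722, 387.4, 1633 and 254 CPM at 7 days. In both, replicates 2 and 4 were the highest of the 7D 0 mg/kg tendons and replicates 3 and 5 the lowest, as in the sarcomere share. Acta1 changed by -5.65 on the log2 scale (standard error 1.08, adjusted p = 5.53e-05) and Myh4 by -5.76 (standard error 1.05, adjusted p = 2.91e-05). The troponins Tnni2 and Tnnc2, which gate contraction by calcium, fell by 6.15 and 6.10 on the log2 scale. The slow-fibre light chain Myl3 was less even, at 481.8, 213.1 and 1933 CPM in control and 24.99, 1.67, 1.06, 40.3 and 1.14 CPM at 7 days, and here replicates 1 and 4 were the highest of the 7D 0 mg/kg tendons.

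Promoters of 2 sarcomere genes are shown because the list moved together. Among 23 sarcomere genes with a RefSeq promoter window (250 bases before the start, build GRCr8), 4 (17.4%) held a CArG box, the site of serum response factor, and 4 (17.4%) a MEF2 site. The shares were 1.17% and 0.370% over the 9468 tested genes with a window, and 1.5% and 0.572% over all 27457 windows, with both strands searched. The last 150 bases before the start of Acta1 (chr19:68784195-68784344, minus strand) and of Myh4 (chr10:52421998-52422147, plus strand) each held 1 CArG box, in capitals.
Acta1: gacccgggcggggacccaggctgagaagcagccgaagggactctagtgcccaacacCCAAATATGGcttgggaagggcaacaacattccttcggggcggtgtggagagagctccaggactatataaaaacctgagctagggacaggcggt
Myh4: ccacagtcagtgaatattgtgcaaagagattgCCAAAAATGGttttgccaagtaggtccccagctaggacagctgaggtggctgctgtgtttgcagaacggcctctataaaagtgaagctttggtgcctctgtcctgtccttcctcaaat
A match of letters is a description of the window and no evidence of binding.

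The other fibre programs fell with the sarcomere. All 18 genes of calcium release and uptake were lower (median log2 fold change -5.18), among them the calcium buffer Pvalb, at 7436, 6845 and 17460 CPM in control and 29.7, 364.2, 13.04, 249.3 and 19.5 CPM at 7 days, and the calcium store protein Casq1, at 5453, 5135 and 9578 CPM in control and 46.5, 284.5, 13.99, 228.3 and 39.9 CPM at 7 days. Of the 20 muscle isoforms of energy enzymes, 20 were lower (median -5.53). The creatine kinases Ckm (log2 fold change -5.82, adjusted p = 4.64e-05) and mitochondrial Ckmt2 (-7.75, adjusted p = 2.69e-05) and the enolase Eno3 (-6.22, adjusted p = 1.78e-05) were among them. Ckmt2 was counted at 1052, 627.6 and 3115 CPM in control and 6.12, 18.97, 0.671, 9.33 and 2.13 CPM at 7 days, and the high value belonged to control replicate 4. Without it the log2 fold change was -6.88.

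Among genes of muscle precursor cells and of developing or denervated muscle, 11 of 16 tested were lower and none was higher, with a median log2 fold change of -3.02. With the sarcomere level of each tendon as a covariate, a fit described below, the median was 0.68 and 3 were higher and 1 lower. In that fit 17.9 and 20.2% of all genes were higher and lower. The myogenic factor Myod1 was counted at 28.03, 29.99 and 55.1 CPM in control and 4.33, 5.62, 0.699, 1.48 and 1.09 CPM at 7 days, with a log2 fold change of -3.83 (adjusted p = 0.000656), and Myf6, a factor of mature fibre nuclei, fell by 4.75. The perinatal myosin Myh8, a near relative of the adult fast myosins whose reads may be split between copies, fell by 4.74.

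Over all genes without overlap between the groups, the 10 largest decreases with at least 10 CPM in control tendons included the muscle energy genes Ckmt2 and Fbp2 (fructose bisphosphatase of muscle). The others were Sbk2, a kinase of striated muscle, Aqp4, the water channel of fast fibres, Ostn, a secreted peptide of muscle and bone, Tigd4, Ckmt1, Map3k7cl and 2 gene models without a common name. Reads of Ckmt1 and Ckmt2 may be split between related genes. The smallest of the 10 decreases was that of Map3k7cl, which fell by 6.97 on the log2 scale. Sbk2 had 1243 counts in the control tendons together and 6 in the 7D 0 mg/kg tendons, a ratio of 652 (95% exact interval 298 to 1780, counting error only). Aqp4 was counted at 127.2, 82.9 and 288.5 CPM in control and 0.0549, 1.40, 0.0559, 0.174 and 0.0993 CPM at 7 days, so that replicate 2 of the 7D 0 mg/kg group was far above the rest. Ostn was counted at 232.2, 502 and 591.6 CPM in control and 0.521, 7.84, 0.224, 1.07 and 0.521 CPM at 7 days, again with replicate 2 highest.

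To tell decreases that go with muscle RNA from those that do not, each gene was compared with the sarcomere level in tendons outside this comparison. Over the 15 tendons at 21 days the sarcomere share varied from 0.0631 to 8.53%, and for every gene the Pearson correlation r of its log2 CPM with the log2 sarcomere level was taken there, centred on the dose groups, with a gene's own counts left out. These r are descriptions over 15 tendons that share libraries and depth. At least 0.7 was reached by 1508 genes (12.0%). They were 1428 of the 3472 lower genes (41.1%), 79 of the 5450 uncalled genes (1.45%) and 1 of the 3636 higher genes (0.0275%). The remaining 2044 lower genes had r under 0.7, and 939 of them were under 0.3. All 31 sarcomere genes, 17 of 18 calcium genes and 19 of 20 muscle energy genes had r of at least 0.7, with list medians of 0.98.

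**Figure D3:**
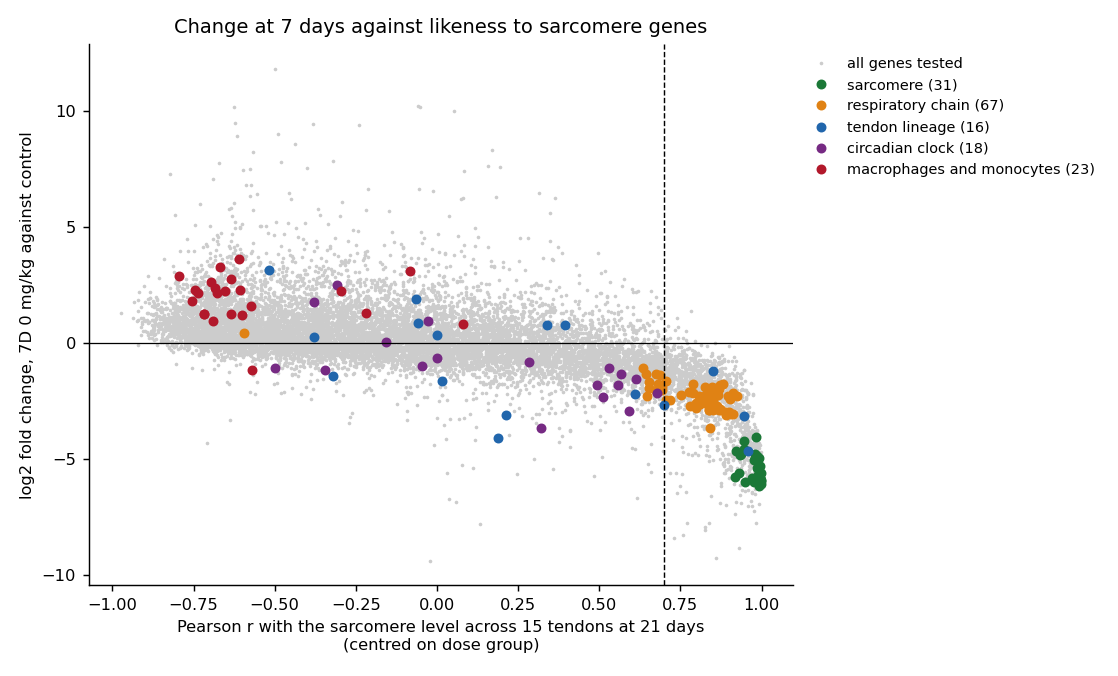
Log2 fold change in 7D 0 mg/kg against control tendons (vertical axis) against the correlation r of each gene with the sarcomere level over 15 tendons at 21 days (horizontal axis, 1 point per gene, 12558 genes), with 5 gene lists in colour. The dashed line marks r = 0.7. Sarcomere genes lie at the lower right, respiratory chain genes to the right with smaller decreases, and macrophage genes at the upper left.

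A second measure put the sarcomere level of each tendon into the fit as a covariate. Then 2242 genes (17.9%) were higher and 2539 (20.2%) lower. The covariate was summed over the same 31 sarcomere genes. Their values near 0 are therefore built into this fit and are no check on it. The sarcomere list had a median log2 fold change of 0.14 with 0 of 31 members lower, and the calcium and muscle energy lists had medians of -0.19 and -0.33. Of the 1428 lower genes that followed the sarcomere level, 849 (59.5%) remained lower in this fit, and of the 2044 that did not, 1470 (71.9%) did. Of the 939 lower genes with r under 0.3, 765 (81.5%) remained lower. Control tendons held 16.96 to 22.21% and no repaired tendon at 21 days more than 8.53%, so this fit is carried past the range in which the covariate varied within groups.

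**Figure D4:**
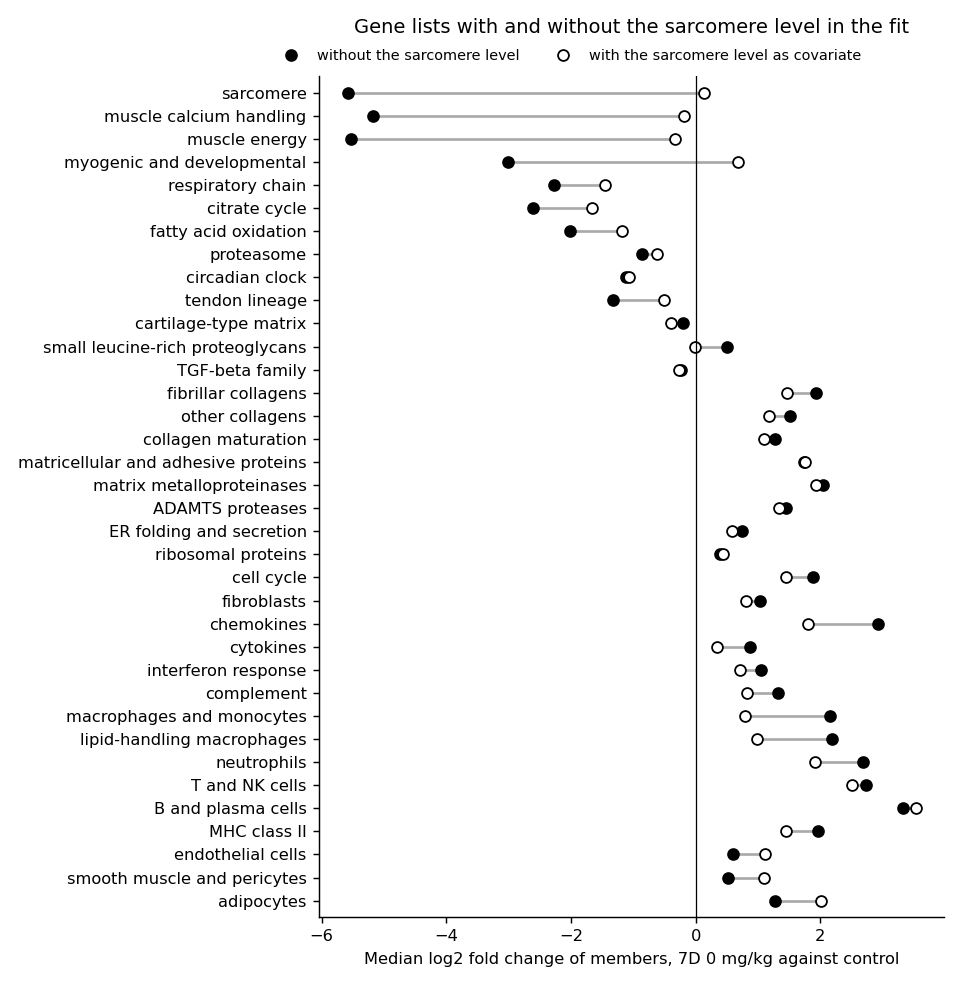
Median log2 fold change of each gene list without (filled) and with (open) the sarcomere level of each tendon as a covariate. The muscle fibre lists move from below -5 to near 0, the respiratory chain from -2.28 to -1.45, and the matricellular list stays at 1.73 and 1.76. The sarcomere list does so by construction, since the covariate is summed from its own genes.

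Genes of mitochondrial energy metabolism shared by all tissues fell too. Of 67 nuclear-encoded subunits of the respiratory chain and ATP synthase, which turn fuel into ATP in mitochondria of all cells, 66 were lower and none higher, with a median log2 fold change of -2.28. With the covariate 64 of the 67 were still lower (median -1.45), and 54 followed the sarcomere level at 21 days. Ndufs1 of complex I was counted at 608.9, 526.9 and 1086 CPM in control and 64.3, 58.8, 55.9, 61.5 and 54.3 CPM at 7 days. The 7D 0 mg/kg tendons lay within a narrow range, far below all control tendons (log2 fold change -3.65, standard error 0.39, adjusted p = 1.48e-08). Ndufs1 had an r of 0.84, and the covariate fit gave -1.999. The summed level of the list was 26180 to 72550 CPM in control and 7607 to 9044 CPM at 7 days. Leaving out control replicate 4 gave a list median of -1.70, with 65 lower.

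Of 15 citrate cycle enzymes 14 were lower (median -2.62), and of 20 genes of fatty acid oxidation 19 (median -2.01). Cpt1b, the muscle form of the enzyme that admits fatty acids to mitochondria, fell by 4.69 and had an r of 0.97, and with the covariate its log2 fold change was -0.42. Acadm, a dehydrogenase of general tissues, fell by 3.68 with an r of 0.90, and with the covariate its log2 fold change was -1.89. Pdk4, which holds back glucose oxidation, fell by 4.85, with an r of 0.91 and -1.13 with the covariate, not past the threshold.

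General isoforms of glycolysis split, with 8 of 15 higher and 7 lower, compared to 29.0 and 27.6% of all genes. With the covariate 2 were higher and 7 lower, compared to 17.9 and 20.2% of all genes. Pyruvate kinase Pkm was counted at 797.6, 688.8 and 1128 CPM in control and 57.2, 68.5, 40.4, 57.6 and 45.9 CPM at 7 days, and glucose phosphate isomerase Gpi at 1772, 1555 and 2938 CPM in control and 347.7, 330.6, 307.4, 307.7 and 314 CPM at 7 days. Both fell (log2 fold changes -4.02 and -2.70) and remained lower with the covariate (-2.35 and -2.22). Pkm had an r of 0.79 and Gpi of 0.48. The lactate exporter Slc16a3 fell by 3.21 with an r of only 0.08. In the other direction, hexokinase Hk3, known from white blood cells, was counted at 1.70, 0.561 and 0.490 CPM in control and 69.4, 31.7, 73.4, 27.1 and 58.02 CPM at 7 days and rose (log2 fold change 5.77, standard error 1.07, adjusted p = 3.76e-05). The phosphofructokinases Pfkl and Pfkp rose by 1.46 and 1.39, and the glucose transporter Slc2a1 by 2.68, but with the covariate their log2 fold changes were 0.46, 0.67 and 0.48, below the threshold.

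The proteasome, which breaks down tagged proteins, was lower in 22 of 30 subunits and higher in none, with a median of -0.85 that was -0.21 with library size alone, where 7 were lower. Psmd11 was counted at 224.5, 229.2 and 217.6 CPM in control and 75.8, 65.8, 69.3, 66 and 68.7 CPM at 7 days, 2 narrow groups without overlap (log2 fold change -1.70, standard error 0.11, adjusted p = 1.15e-11). Psmd11 had an r of 0.73, and 12 of the 22 lower subunits had r of at least 0.7. With the covariate 16 subunits were lower and the median was -0.62.

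Several matrix genes of mature tendon fell without following the sarcomere level. Among lower genes with r under 0.3, on no muscle list, with at least 10 CPM and with no overlap between the groups, the 10 largest decreases were Clec3a, Angptl7, Car12, Adh6, Col11a2, Ccdc3, Col24a1, Med12l, Rnf112 and Cntfr. Clec3a (ENSRNOG00000012238, chromosome 19), a lectin of cartilage matrix, was counted at 764.8, 76.3 and 28.9 CPM in control and 0.220, 0.740, 2.69, 0.812 and 8.06 CPM at 7 days. Angptl7 (ENSRNOG00000009589, chromosome 5), a secreted angiopoietin-like protein, was counted at 2245, 452.8 and 122.7 CPM in control and 19.1, 20.4, 22.6, 13.4 and 48.8 CPM at 7 days. No control value reached down to the 7D 0 mg/kg values in either gene, but the control tendons themselves differed by over an order of magnitude, with replicate 2 highest and replicate 4 lowest. Clec3a fell by 6.84 on the log2 scale (standard error 1.26, adjusted p = 3.5e-05) and Angptl7 fell by 5.24 (standard error 0.77, adjusted p = 1.81e-06), and with the sarcomere covariate they were -8.22 and -5.997.

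Fibrillar collagen chains of fine or cartilage-type fibrils were in this set. Col11a2 was counted at 280.8, 49.8 and 101.1 CPM in control and 4.61, 8.96, 9.09, 11.6 and 6.67 CPM at 7 days (log2 fold change -4.14, standard error 0.54, adjusted p = 2.82e-07). Col24a1 was counted at 72.8, 90.5 and 35.9 CPM in control and 4.31, 9.57, 6.32, 4.84 and 2.16 CPM at 7 days (log2 fold change -3.61, standard error 0.42, adjusted p = 4.45e-08). Both were lower in each 7D 0 mg/kg tendon than in each control tendon. Without control replicate 4 their log2 fold changes were -4.39 and -3.97. The carbonic anhydrase Car12 fell by 5.01 and Cntfr, a receptor for ciliary neurotrophic factor, by 3.28.

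Of 16 genes of the tendon lineage 9 were lower, 3 higher and 4 not called, with a median of -1.32 that was -0.50 with the covariate. Over all genes 27.6% were lower and 29.0% higher. With library size alone 6 were higher. Mohawk (Mkx, ENSRNOG00000018938, chromosome 17), a homeobox factor of mature tenocytes, was counted at 9.39, 4.89 and 2.78 CPM in control and 0.302, 0.110, 0.616, 0.348 and 0.273 CPM at 7 days, low levels that came from 34 to 199 reads in control and 4 to 22 reads at 7 days. All repaired tendons were below all control tendons, and the gene fell by 4.10 on the log2 scale (standard error 0.61, adjusted p = 1.82e-06), with -4.26 in the covariate fit. Tenomodulin (Tnmd, ENSRNOG00000060970, chromosome X), a membrane protein of tendon and ligament cells, was counted at 364.4, 146.7 and 178.2 CPM in control and 46.9, 72.4, 126.6, 134.6 and 46.2 CPM at 7 days. Its groups lay next to each other without overlap, replicate 4 at 7 days being just under control replicate 3 (log2 fold change -1.43, standard error 0.44, adjusted p = 0.00588). The decrease of Tnmd was past the test's threshold neither without control replicate 2 (-0.99, adjusted p = 0.0706) nor with library size alone (-0.84, adjusted p = 0.093). Scleraxis (Scx, ENSRNOG00000021812, chromosome 7), the early factor of the lineage, was counted at 37.2, 19 and 25.3 CPM in control and 23.3, 34.5, 65.9, 91.5 and 21.9 CPM at 7 days. The groups overlapped, the log2 fold change of 0.80 (standard error 0.39) did not pass the test (adjusted p = 0.0708), and replicates 3 and 4 at 7 days were above every control tendon. Without 7D 0 mg/kg replicate 1 or 5 the increase passed (0.97, adjusted p = 0.0289, and 0.98, adjusted p = 0.0257), as it did with library size alone (1.41, adjusted p = 0.00291).

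Eya1, another member of the lineage list and a factor also active in muscle fibres, fell by 4.64 with an r of 0.96, and with the covariate its log2 fold change was 1.94. The growth-response factor Egr2, also a marker of Schwann cells, rose (1.32, 4.25 and 4.08 CPM in control and 48.04, 27.8, 21.9, 23.2 and 21.6 CPM at 7 days, log2 fold change 3.16, adjusted p = 0.00073). With the covariate its log2 fold change was 1.84 (adjusted p = 0.0826), not past the threshold. The serine protease Htra3 was counted at 166.8, 126.4 and 64.3 CPM in control and 468.2, 578.8, 330.6, 352.1 and 468.9 CPM at 7 days and rose by 1.88.

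Small leucine-rich proteoglycans, which bind collagen fibrils and set their spacing, had 3 of 9 members lower and 3 higher, near the 27.6 and 29.0% of all genes, so that single genes are described and not the family. Chondroadherin (Chad) was counted at 962.8, 179.9 and 119.3 CPM in control and 1.70, 1.59, 4.90, 1.42 and 29.6 CPM at 7 days, keratocan (Kera) at 1157, 339.1 and 280 CPM in control and 76.99, 63.2, 85.6, 71.2 and 51.8 CPM at 7 days, and fibromodulin (Fmod, ENSRNOG00000003183, chromosome 13) at 3210, 869.1 and 772 CPM in control and 369.2, 564.8, 561, 676.1 and 431.2 CPM at 7 days. In all 3 the lowest control tendon was above the highest 7D 0 mg/kg tendon, by little in Fmod. On the log2 scale Chad changed by -5.74, Kera by -3.09 and Fmod by -1.64 (adjusted p = 5.92e-06, 2.39e-06 and 0.000601). Without control replicate 2, which was highest in all 3, Fmod was at -0.72 (adjusted p = 0.0776) and no longer past the threshold. Lumican (Lum, ENSRNOG00000004610, chromosome 7) was counted at 273.8, 78.7 and 135.1 CPM in control and 4275, 4467, 5178, 5548 and 4102 CPM at 7 days, biglycan (Bgn) at 1118, 685.3 and 388.3 CPM in control and 2360, 3322, 3402, 3287 and 2930 CPM at 7 days, and podocan-like Podnl1 at 0.0944, 0.160 and 0.0817 CPM in control and 7.93, 15.8, 24.8, 26.4 and 8.59 CPM at 7 days. These 3 rose by 4.86, 2.07 and 7.09 on the log2 scale (adjusted p = 1.41e-10, 1.74e-07 and 7.69e-09), Podnl1 from 7 counts in all control tendons together. Decorin (Dcn), the main proteoglycan of adult tendon, was counted at 5947, 4323 and 2029 CPM in control and 4735, 3575, 3038, 3355 and 3753 CPM at 7 days, with overlapping groups and a log2 fold change of -0.15 (adjusted p = 0.553) whose sign turned with library size alone (0.40) and without control replicate 2 (0.15). Without control replicate 4 it was -0.53 (adjusted p = 0.0132), and the median of the list went from 0.50 to -0.004.

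In the list of cartilage-type matrix, 5 of 15 genes were lower and 4 higher, close to the shares over all genes (27.6 and 29.0%), and the list median of -0.20 became 0.37 with library size alone and 0.59 without control replicate 2. Besides Clec3a and Chad, the secreted protein Cytl1 fell by 2.94. Sox6 fell by 4.17, but with an r of 0.98 and -0.01 with the covariate. The large proteoglycan aggrecan (Acan) was counted at 23.03, 9.74 and 4.58 CPM in control and 11.2, 44.95, 101.9, 63.8 and 17.8 CPM at 7 days, an increase of 1.93 (adjusted p = 0.015) with overlapping groups, and 0.29 with the covariate. Without control replicate 3 or 4 or 7D 0 mg/kg replicate 3 the adjusted p of Acan was 0.0537, 0.0889 and 0.0543, and in a fit of the 8 tendons alone it was 0.0638. The list had 2 higher members without control replicate 4, and also with the covariate.

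Collagens and other matrix genes of repair rose at the same time. Of 10 chains of fibrillar collagens 7 were higher and 2, Col11a2 and Col24a1, lower. With the covariate 5 were higher and 2 lower. Type III collagen (Col3a1, ENSRNOG00000003357, chromosome 9) was counted at 11410, 12300 and 3490 CPM in control and 42440, 52730, 51760, 47550 and 53380 CPM at 7 days. The 5 repaired tendons formed a tight group above all control tendons (log2 fold change 2.45, standard error 0.30, adjusted p = 8.99e-08). Type I collagen (Col1a1, ENSRNOG00000003897, chromosome 10) was counted at 30140, 17830 and 7359 CPM in control and 22760, 44860, 51620, 41540 and 41900 CPM at 7 days. There the groups overlapped, since control replicate 2 was above the lowest repaired tendon, replicate 1, and the increase was smaller (log2 fold change 1.14, standard error 0.33, adjusted p = 0.0039). Without control replicate 4 the log2 fold change of Col1a1 was 0.70 (adjusted p = 0.0438), near both limits of the call, and that of Col3a1 was 2.01 (adjusted p = 4.22e-08). Col1a1 missed the threshold in a fit of the 8 tendons alone (adjusted p = 0.104) and with the covariate (log2 fold change 0.88, adjusted p = 0.125). Col3a1 was at 2.32 with the covariate (adjusted p = 4.67e-05). Type V collagen chains, which start and limit fibrils, rose: Col5a3 was counted at 67.8, 68.2 and 54.2 CPM in control and 485.1, 1167, 1178, 818 and 1404 CPM at 7 days (log2 fold change 3.99) and Col5a1 at 599.8, 491.1 and 107.7 CPM in control and 948.8, 2303, 2715, 2378 and 2343 CPM at 7 days (log2 fold change 2.42).

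Of 22 other collagen chains 14 were higher and 5 lower, compared to 29.0 and 27.6% of all genes. With the covariate 10 were higher and 5 lower. Col12a1, which coats fibrils, and Col16a1 rose by 3.05 and 2.86, and the basement membrane chain Col18a1 by 2.47. Col22a1, a collagen of the myotendinous junction, was counted at 292.4, 411 and 152.1 CPM in control and 2.44, 0.905, 1.01, 32.3 and 10.4 CPM at 7 days and fell (log2 fold change -4.92, standard error 0.95, adjusted p = 5.86e-05). Its r was 0.51, and its log2 fold change with the covariate was -3.46. Replicates 4 and 5 held the highest of the 7D 0 mg/kg values. Among the enzymes that hydroxylate, cleave and crosslink collagen, 20 of 26 were higher and 1 lower. The prolyl hydroxylase subunit P4ha3 was counted at 9.91, 6.98 and 2.53 CPM in control and 65.4, 101.7, 89.3, 109.5 and 74.2 CPM at 7 days (log2 fold change 3.74, standard error 0.34, adjusted p = 1.2e-09), and the crosslinking oxidases Lox and Loxl1 rose by 2.50 and 2.61. The 1 that fell was P3h2, by 2.94.

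Matricellular and adhesive proteins, which sit in the matrix and steer cells, had 24 of 31 members higher and 1 lower, with a median of 1.73 and of 1.76 with the covariate. Tenascin N (Tnn, also called tenascin W, ENSRNOG00000002548, chromosome 13) was counted at 1.27, 0.601 and 1.06 CPM in control and 476.5, 1345, 1521, 1415 and 847.9 CPM at 7 days. It had the largest increase of the list, with the lowest value in replicate 1 (log2 fold change 10.18, standard error 0.67, adjusted p = 1.35e-11), and its r with muscle was -0.05. Tenascin C (Tnc) was counted at 259.1, 98.3 and 90.2 CPM in control and 571.7, 893.7, 1249, 1451 and 547.4 CPM at 7 days and rose by 2.66. Cthrc1, a secreted protein of collagen-making fibroblasts, was counted at 11.7, 14.9 and 7.76 CPM in control and 569.3, 940.2, 897.6, 1019 and 540.2 CPM at 7 days (log2 fold change 6.11, standard error 0.38, adjusted p = 6.54e-12). The fibroblast surface protein Lrrc15 was counted at 1.46, 0.521 and 0.408 CPM in control and 19.9, 86.1, 88.6, 71.05 and 46.4 CPM at 7 days and rose by 6.23. Cilp2, a protein of cartilage and tendon matrix, went the other way and was counted at 707.1, 107.4 and 185.6 CPM in control and 33.1, 51.8, 83.8, 90.3 and 59.8 CPM at 7 days, with a log2 fold change of -2.39 (adjusted p = 0.000327).

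**Figure D5:**
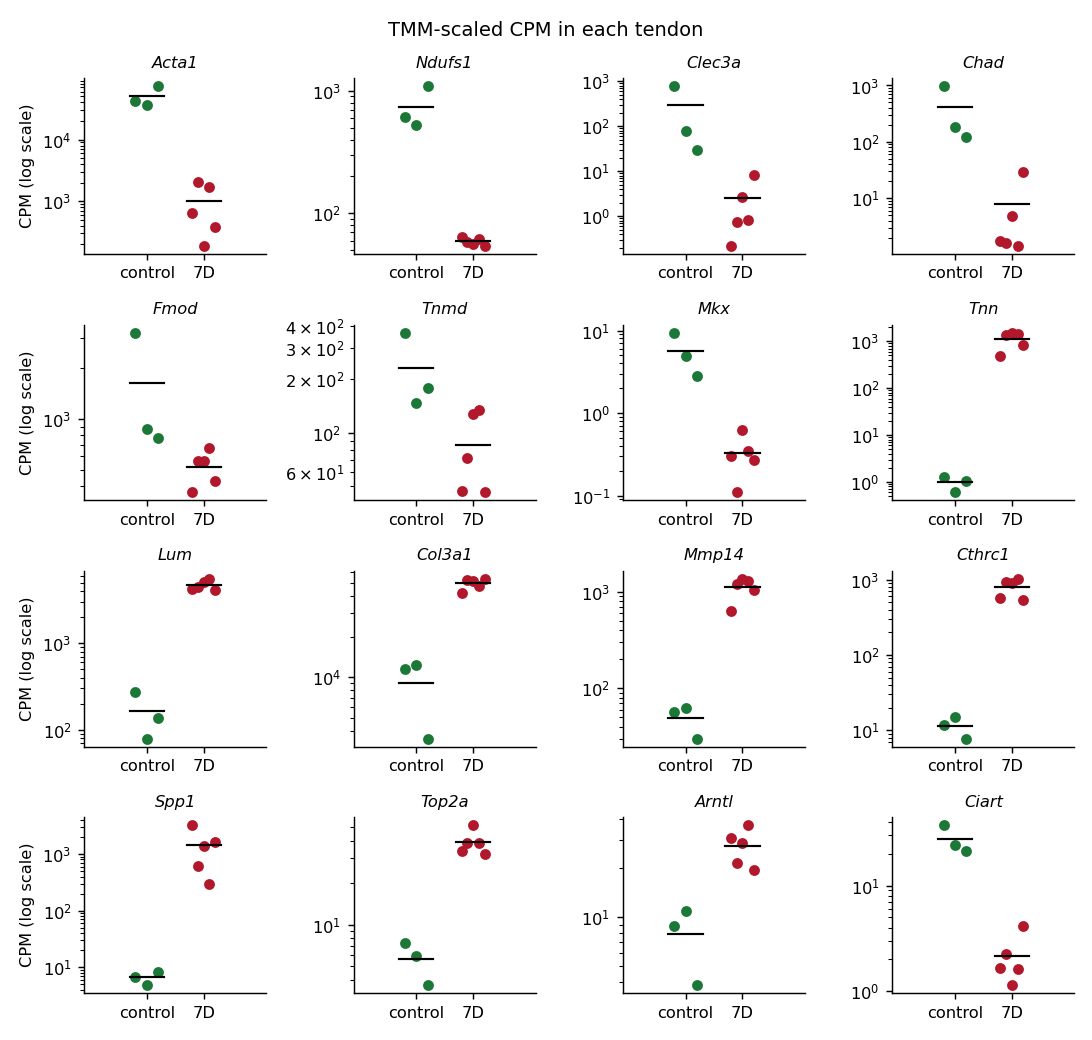
TMM-scaled CPM (log axis, a separate range in each panel) of 16 genes in each control tendon (green, n = 3) and each 7D 0 mg/kg tendon (red, n = 5), with group means as lines. Acta1, Ndufs1, Clec3a, Chad, Fmod, Tnmd, Mkx and Ciart lie lower at 7 days, and Tnn, Lum, Col3a1, Mmp14, Cthrc1, Spp1, Top2a and Arntl higher, with no overlap in any panel.

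Many proteases that cut matrix rose. Of 14 matrix metalloproteinases 9 were higher and 2 lower, compared to 29.0 and 27.6% of all genes. The membrane collagenase Mmp14 (ENSRNOG00000010947, chromosome 15) was counted at 56.2, 63.1 and 30.1 CPM in control and 632.9, 1216, 1354, 1308 and 1036 CPM at 7 days (log2 fold change 4.48, standard error 0.32, adjusted p = 3.36e-11). The macrophage elastase Mmp12, the gelatinase Mmp9 and the collagenase Mmp13 were at or below 1.64 CPM in every control tendon. At 7 days Mmp12 was at 879, 237, 302, 125 and 370 CPM, and Mmp9 at 174, 53.5, 125, 30.6 and 91.0 CPM. Replicate 1 was highest and replicate 4 lowest in both, as also in Ccl9, Il1rn and Spp1 below. Mmp13 was counted at 0, 0.201 and 0.327 CPM in control and 19.6, 21.1, 109.9, 12.03 and 17.4 CPM at 7 days, where replicate 3 stood far above the rest. They rose by 8.23, 7.85 and 7.81 on the log2 scale (adjusted p = 2.13e-05, 5.07e-05 and 3.12e-06). The 2 that fell, Mmp24 and Mmp15, had r of 0.73 and 0.84.

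Of 14 ADAMTS proteases 11 were higher. Adamts15, which cleaves versican and aggrecan, was counted at 12.8, 20.9 and 9.23 CPM in control and 269.1, 334.6, 281.6, 275.9 and 364.5 CPM at 7 days (log2 fold change 4.41, standard error 0.31, adjusted p = 3.12e-11), and Adamts4, an aggrecanase, at 1.18, 3.65 and 0.735 CPM in control and 28.8, 33.1, 61.1, 41.7 and 30.8 CPM at 7 days (log2 fold change 4.33). Adamts20 fell by 4.78 with an r of 0.92. Of 8 protease inhibitors 3 were higher and 1, Timp4, lower (-1.42, adjusted p = 0.00255, and 0.064 with library size alone). Over all genes 29.0% were higher and 27.6% lower, so these counts are no result about the inhibitors as a list. In the fit without control replicate 4, 2 were higher and 3 lower. With the covariate the log2 fold change of Timp4 was -0.37, not past the threshold. The metalloproteinase inhibitor Timp1 rose by 3.19.

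Most genes of cell division rose. Of 56 tested 46 were higher and none lower, with a median of 1.88, of 1.45 with the covariate (39 higher) and of 1.81 without control replicate 4 (46 higher). The proliferation marker Mki67 (ENSRNOG00000028137, chromosome 1) was counted at 8.16, 6.66 and 1.72 CPM in control and 29.7, 43.97, 41.1, 31.2 and 29.1 CPM at 7 days. Topoisomerase Top2a (ENSRNOG00000053047, chromosome 10) was counted at 7.31, 5.97 and 3.68 CPM in control and 33.8, 38.8, 51.6, 38.9 and 32.4 CPM at 7 days. Every repaired tendon was above every control tendon in both, and the increases were 2.64 for Mki67 and 2.77 for Top2a on the log2 scale (adjusted p = 4.1e-06 and 1.91e-07). The mitotic kinase Bub1b rose by 3.66, the cyclin Ccnb1 by 3.15 and the spindle motor Kif11 by 3.14. Control replicate 4 had the lowest value of all 8 tendons for each of these 5 genes.

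The promoters of 3 of them are shown because the list moved together. Cell cycle promoters are known for the CCAAT box, bound by NF-Y, and the CHR element, bound by the DREAM and MuvB complexes. CCAAT was found on either strand of the 250 bases before the start in 23 of 36 higher members with a window (63.9%), compared to 35.4% of tested genes and 34.3% of all windows. It was found in 28 of all 42 tested members with a window (66.7%), so the share is a trait of the list and not of the higher members alone. TTTGAA, searched the same way, was found in 11 of the 36 (30.6%) and in 26.2% of the 42, compared to 10.2% of tested genes and 16.0% of all windows. The last 150 bases before the start are given for Mki67 (chr1:199952594-199952743, minus strand), Top2a (chr10:84473094-84473243, minus strand) and Ccnb1 (chr2:33655226-33655375, minus strand), with both motifs in capitals on the strand of the gene, and in Mki67 a pair of them overlaps.
Mki67: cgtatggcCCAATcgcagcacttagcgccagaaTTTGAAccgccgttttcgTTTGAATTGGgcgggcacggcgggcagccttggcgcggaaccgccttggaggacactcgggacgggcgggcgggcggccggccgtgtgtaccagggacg
Top2a: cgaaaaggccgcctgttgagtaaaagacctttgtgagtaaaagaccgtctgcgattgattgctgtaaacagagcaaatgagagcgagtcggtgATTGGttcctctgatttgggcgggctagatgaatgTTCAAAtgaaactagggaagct
Ccnb1: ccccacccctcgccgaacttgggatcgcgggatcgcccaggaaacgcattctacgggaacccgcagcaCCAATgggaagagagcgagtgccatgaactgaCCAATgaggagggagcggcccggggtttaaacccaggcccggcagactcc
In this window Ccnb1 held 2 CCAAT boxes and no TTTGAA, and Top2a held 1 of each.

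The machinery of protein export rose as well. Of 41 genes for translocation, folding and export of secreted proteins 22 were higher and 2 lower, with a median of 0.75, and 36 were higher with library size alone. The channel subunit Sec61a1 was counted at 155, 128.1 and 87.3 CPM in control and 322.5, 391.6, 433.1, 400.6 and 342.3 CPM at 7 days (log2 fold change 1.61, standard error 0.17, adjusted p = 7.51e-09), and the chaperone partner Sdf2l1 at 14.6, 12.9 and 11.9 CPM in control and 57.5, 43.3, 64.1, 53.7 and 56.5 CPM at 7 days (log2 fold change 2.07). Creb3l1, a factor for collagen secretion, was counted at 66.5, 68.5 and 13.97 CPM in control and 100.4, 165.8, 171.5, 147.4 and 145.7 CPM at 7 days, with control replicate 4 far below the other 2 (log2 fold change 1.55, and 1.06 without that tendon). Ribosomal proteins had 14 of 52 members higher and none lower, a share close to that of all genes. The count was 46 with library size alone, 5 without control replicate 2 and 9 without 7D 0 mg/kg replicate 1. Their reads may be split among processed copies in the genome.

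Growth factors of the TGF-beta family, which drive matrix production, had 9 of 31 members higher and 11 lower, near the 29.0 and 27.6% of all genes, so the counts are no result about the family. The list median of -0.24 became 0.33 with library size alone, where 13 were higher and 6 lower, and with the covariate 6 were higher and 4 lower. Tgfb1 was counted at 32.3, 37.1 and 21.4 CPM in control and 124.8, 110, 154.7, 114.5 and 168 CPM at 7 days (log2 fold change 2.15, standard error 0.30, adjusted p = 8.07e-07), and Tgfb2 at 165.5, 176.4 and 111.9 CPM in control and 42, 52.7, 50.5, 35.1 and 39.9 CPM at 7 days (log2 fold change -1.78, standard error 0.16, adjusted p = 1.32e-09). Each of the 2 ligands was without overlap, in opposite directions, and neither had an r above 0.21. Lrrc32, which anchors latent TGF-beta on cells, rose by 1.81. Myostatin (Mstn), the muscle-made inhibitor of muscle growth, was counted at 51.5, 55.6 and 81.1 CPM in control and 0.576, 1.81, 0, 1.33 and 0.0744 CPM at 7 days, with an r of 0.95.

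Igf1, a growth factor for tendon fibroblasts, was counted at 68.2, 73.8 and 26.3 CPM in control and 181.1, 232.7, 255.2, 300.7 and 216.9 CPM at 7 days (log2 fold change 2.08, standard error 0.29, adjusted p = 9.73e-07), and its binding protein Igfbp4 at 99.5, 230.7 and 104.1 CPM in control and 1319, 1716, 1311, 1240 and 1561 CPM at 7 days (log2 fold change 3.30). Of 16 genes of the IGF and PDGF families 6 were higher and 1 lower, compared to 29.0 and 27.6% of all genes, and 10 were higher with library size alone. Among 15 WNT ligands and secreted inhibitors 6 were higher and 3 lower, not far from the shares over all genes, so single genes are described. The inhibitors Sfrp1, Sfrp2 and Sfrp4 were among the higher and the ligand Wnt4 (-2.71) among the lower. Wnt4 had an r of 0.85, with a log2 fold change of -0.88 in the covariate fit that was not past the threshold, and 1 of the list was lower in that fit and also with library size alone. Sfrp4 was counted at 119.4, 155.8 and 48.5 CPM in control and 1824, 1188, 587.9, 739 and 968.6 CPM at 7 days (log2 fold change 3.30, standard error 0.36, adjusted p = 2.2e-08), and Sfrp2 and Sfrp1 rose by 2.73 and 2.34.

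Chemokines, which draw in white blood cells, had 24 of 27 members higher and none lower, with a median log2 fold change of 2.93. With the covariate 13 were higher and 1 lower, with a median of 1.80. Cxcl6, which attracts neutrophils, had 1 count in the control tendons together and 4445 in the 7D 0 mg/kg tendons, where it was at 5.57, 15.1, 83.3, 8.61 and 10.4 CPM. Its ratio was 1410 (95% exact interval 254 to 55800), and replicate 3 stood above the rest. Ccl9, a chemokine of myeloid cells, was counted at 0.425, 1.12 and 1.06 CPM in control and 397.4, 116.8, 118.4, 25.6 and 125.4 CPM at 7 days (log2 fold change 7.50, standard error 1.52, adjusted p = 0.000111), and Ccl3 rose by 4.97 (adjusted p = 0.00156). An NF-kB site was found in 8 of 17 higher chemokine genes with a window (47.1%) and in 8 of all 20 tested (40%), compared to 8.53% of tested genes and 6.41% of all windows. The promoter of Cxcl6 is given for this reason (chr14:17596418-17596567, minus strand), with 2 overlapping matches on either strand in capitals.
Cxcl6: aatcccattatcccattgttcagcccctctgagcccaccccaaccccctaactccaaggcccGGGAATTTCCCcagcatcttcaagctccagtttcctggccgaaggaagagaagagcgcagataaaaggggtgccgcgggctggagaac

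Of 19 cytokines 10 were higher and 1 lower, compared to 29.0 and 27.6% of all genes. With library size alone 16 were higher, and with the covariate 6, compared to 17.9% of all genes in the covariate fit. The interleukin 1 antagonist Il1rn was counted at 2.22, 2.29 and 0.735 CPM in control and 354.1, 87.1, 147.6, 29.2 and 124.7 CPM at 7 days (log2 fold change 6.35, standard error 1.51, adjusted p = 0.000597) and Il1b at 3.82, 4.21 and 0.327 CPM in control and 31.7, 17.7, 57.8, 20.8 and 31.2 CPM at 7 days (log2 fold change 3.46, standard error 0.63, adjusted p = 3.14e-05). Il6, a cytokine of injury, was counted at 0, 0.401 and 0.245 CPM in control and 30.02, 4.80, 3.89, 2.49 and 17.8 CPM at 7 days, with replicates 1 and 5 above the rest. The cytokine that fell was Il15, made by muscle among other tissues, by 2.50 with an r of 0.35. Acod1, an enzyme of activated macrophages, had no count in any control tendon and was at 8.39, 8.11, 50.3, 2.70 and 3.28 CPM at 7 days, at least 278-fold higher against a floor of 3 counts over the control group.

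Genes induced by interferons were higher in 14 of 24, with a median of 1.05, and for the 2 members below 1 tendon stood far above the others. Mx1, an antiviral GTPase, was counted at 3.87, 5.13 and 5.15 CPM in control and 16.5, 17.1, 166.1, 28.7 and 11.8 CPM at 7 days, and Isg15 at 2.27, 6.42 and 8.99 CPM in control and 18.9, 16.1, 90.3, 25.5 and 10.2 CPM at 7 days. Replicate 3 was highest for both, and the increases passed the test all the same (3.35, adjusted p = 0.003, and 2.47, adjusted p = 0.00379). Without that tendon Mx1 rose by 1.98 and Isg15 by 1.60 (adjusted p = 0.0224 and 0.0232). With the covariate 4 of the 24 were higher, near the 17.9% of all genes higher in that fit, and 1 was lower. Of 19 complement genes 13 were higher and 1 lower, and 8 were higher with the covariate. The central component C3 was counted at 2.74, 4.85 and 1.23 CPM in control and 121.7, 76.9, 71.5, 65.5 and 142.2 CPM at 7 days (log2 fold change 4.97, standard error 0.54, adjusted p = 1.95e-08), and the protease C1s rose by 2.67.

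In the list of hypoxia and vessel growth 10 of 19 were higher and 6 lower (median 0.79), and 6 were higher without control replicate 2. Over all genes 29.0% were higher and 27.6% lower. Hif1a, the oxygen-regulated factor, was counted at 95.5, 89.3 and 67.6 CPM in control and 298.4, 276.6, 353.9, 288.2 and 251.3 CPM at 7 days (log2 fold change 1.80, standard error 0.17, adjusted p = 1.39e-09). Of the 6 lower members, the vessel growth factor Vegfa was counted at 472.1, 391.1 and 753.8 CPM in control and 135.7, 137.7, 90.5, 87.8 and 124.3 CPM at 7 days (log2 fold change -2.23, standard error 0.28, adjusted p = 1.75e-07), and the prolyl hydroxylase Egln3 at 86.4, 93.6 and 166.4 CPM in control and 26.1, 10.4, 7.83, 6.09 and 9.53 CPM at 7 days (log2 fold change -3.27, standard error 0.53, adjusted p = 7.12e-06). The r of Egln3 was 0.04 and that of Vegfa 0.59, and the decreases were -3.38 and -1.55 with the covariate. Vegfd, a growth factor of lymphatic vessels, rose by 3.50.

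Genes of the circadian clock moved in opposite directions. Of 18 clock genes 13 were lower and 3 higher, none of the 13 had r of at least 0.7, and with the covariate the same number, 13, were lower, with a median of -1.07 compared to -1.11 without it. With library size alone 8 were lower. Bmal1 (Arntl, ENSRNOG00000014448, chromosome 1), which drives the clock, was counted at 8.87, 10.9 and 3.84 CPM in control and 30.5, 21.6, 28.4, 36.6 and 19.5 CPM at 7 days, and its relative Npas2 at 4.81, 5.93 and 5.31 CPM in control and 35.01, 37.99, 27.6, 31.6 and 21.2 CPM at 7 days. Both were above control in each tendon (1.78, adjusted p = 0.00026, and 2.52, adjusted p = 2.74e-07). Ciart (ENSRNOG00000042717, chromosome 2), a repressor in the loop, was counted at 37.1, 23.98 and 21.4 CPM in control and 1.67, 2.27, 1.15, 1.62 and 4.17 CPM at 7 days, the output factor Dbp at 362.3, 293.8 and 610.1 CPM in control and 59.6, 88.3, 66.8, 86.5 and 123 CPM at 7 days, and the receptor Nr1d1, which represses Arntl, at 261.9, 278 and 188.4 CPM in control and 68.7, 78.97, 52.7, 71.6 and 79.4 CPM at 7 days. All 3 were below control in each tendon (-3.65, -2.31 and -1.79, adjusted p = 4.64e-08, 2.92e-07 and 5.84e-08). The hour at which the tendons were taken is not given in the sources used here, so time of day and injury cannot be told apart. CACGTG, the E-box bound by Arntl and its partner, was found in the promoters of 4 of 11 lower clock genes with a window (36.4%), compared to 8.01% of tested genes and 5.79% of all windows. Over all 15 tested clock genes with a window the share was 26.7%. The 150 bases before the start of Ciart (chr2:186112247-186112396, minus strand) held 3, in capitals, and show the motif on which this loop is known to act.
Ciart: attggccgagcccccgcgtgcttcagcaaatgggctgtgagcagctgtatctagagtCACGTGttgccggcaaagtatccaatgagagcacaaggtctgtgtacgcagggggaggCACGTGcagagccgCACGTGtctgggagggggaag

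Immediate early genes, which react to handling within minutes, had 10 of 22 members higher and 1 lower, and 16 were higher with library size alone and also without control replicate 3, and 5 with the covariate. Myc rose by 1.99, and Nr4a1 was counted at 421.5, 271 and 258.9 CPM in control and 94.3, 57.2, 33.2, 40.5 and 116.3 CPM at 7 days and fell by 2.21 (r of 0.61, and -1.18 with the covariate, not past the threshold). Of 21 genes of cholesterol synthesis 9 were higher and 1 lower, and 15 were higher with library size alone and 4 with the covariate, with Sqle, squalene epoxidase, rising by 1.87. Over all genes 29.0% were higher and 27.6% lower, and in the covariate fit 17.9% were higher.

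White blood cell genes rose broadly. Of 23 markers of macrophages and monocytes 20 were higher and 1 lower, with a summed level of 436 to 2132 CPM in control and 3105 to 6690 CPM at 7 days. Cd68, a lysosomal protein of macrophages, was counted at 26, 23.6 and 7.19 CPM in control and 226.1, 107.9, 206.6, 119.2 and 255.2 CPM at 7 days, and Adgre1 (F4/80) at 14.7, 18.7 and 9.15 CPM in control and 58.8, 33.2, 67.5, 74.7 and 99.9 CPM at 7 days. All repaired tendons were above all controls (3.27, adjusted p = 0.000193, and 2.23, adjusted p = 0.000126). The member that fell was Lyve1, of resident macrophages and lymphatic vessels, counted at 342.4, 199.4 and 70.5 CPM in control and 92.98, 66.9, 66.4, 62.1 and 165.8 CPM at 7 days (log2 fold change -1.17, standard error 0.37, adjusted p = 0.00681). At 21 days the macrophage markers had a median r of -0.65 with the sarcomere level. With the covariate 3 of the 23 were higher and 1 lower, with a median of 0.80 in place of 2.16. In that fit 17.9% of all genes were higher, so the excess of higher macrophage markers was not seen there. Lyve1 was past the threshold neither without control replicate 2 (adjusted p = 0.143) nor with library size alone (adjusted p = 0.133), nor in a fit of the 8 tendons alone (adjusted p = 0.058). Its log2 fold change was -1.63 without control replicate 4 (adjusted p = 0.00023) and -1.96 with the covariate (adjusted p = 0.00343). Without control replicate 4, which was lowest for Cd68 and Adgre1, 15 of the 23 were higher. In these bulk samples the part of the smaller muscle RNA share in the rise of macrophage genes was not tested beyond this fit.

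Genes of phagocytic, lipid-handling macrophages were higher in 16 of 21 (median 2.18), and in 9 with the covariate (median 0.99). Osteopontin (Spp1, ENSRNOG00000043451, chromosome 14), secreted by such macrophages and by bone cells, was counted at 6.75, 4.89 and 8.33 CPM in control and 3189, 603.2, 1403, 298.4 and 1652 CPM at 7 days (log2 fold change 7.75, standard error 1.65, adjusted p = 0.000188), with replicates 1 and 5 high and replicates 2 and 4 low. Gpnmb, a lysosomal membrane protein, was counted at 62.9, 88.4 and 21.9 CPM in control and 2306, 992.5, 1374, 924.4 and 2224 CPM at 7 days (log2 fold change 4.76, standard error 0.85, adjusted p = 2.45e-05), and Apoe, which carries lipid, at 405.9, 1136 and 548 CPM in control and 5864, 5901, 9797, 10460 and 12810 CPM at 7 days (log2 fold change 3.69, standard error 0.53, adjusted p = 1.15e-06). Of 11 genes of osteoclasts and cell fusion 10 were higher, 6 with the covariate, and the phosphatase Acp5 and the protease Ctsk, known from osteoclasts, rose by 3.06 and 2.65. Of 20 listed neutrophil markers 11 were tested, with a summed level of 13.1 to 41.5 CPM in control, and 9 were higher. The others, among them Mpo, Elane, Ltf and Camp, were not in the deposited counts. A marker near 0 in control was tested only if its mean reached 3 CPM in another group, so this count is partly set by the filter. S100a8 was counted at 1.84, 2.12 and 1.55 CPM in control and 24.4, 15.9, 25.3, 19.4 and 9.06 CPM at 7 days (log2 fold change 3.34, standard error 0.74, adjusted p = 0.000278). With the covariate 2 of the 11 were higher, near the 17.9% of all genes higher in that fit.

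Markers of lymphocytes rose from very low levels. Of 25 listed markers of T and NK cells 17 were tested, and all 17 were higher, 10 with the covariate (median 2.73 and 2.51). Their summed level in control was 17.2 to 101 CPM. A marker near 0 in control was tested only if its mean reached 3 CPM in another group, so these counts are partly set by the filter. Cd8a was counted at 2.08, 1.36 and 0.817 CPM in control and 18.7, 10.03, 16.7, 14.96 and 31.1 CPM at 7 days (log2 fold change 3.65, standard error 0.39, adjusted p = 1.43e-08), and Cd3e, a chain of the T cell receptor complex, at 1.23, 0.321 and 0 CPM in control and 5.05, 3.98, 5.32, 4.72 and 7.96 CPM at 7 days (log2 fold change 3.29, standard error 0.80, adjusted p = 0.000728). Of 12 listed markers of B and plasma cells 7 were tested, with the same limit, and 6 were higher. Their summed level was 3.27 to 19.0 CPM in control and 24.8 to 55.4 CPM at 7 days. MHC class II genes, which present antigen, were higher in 10 of 11, with the regulator Ciita at 4.01, 6.50 and 1.80 CPM in control and 20.2, 18.2, 30.7, 22.5 and 36.95 CPM at 7 days (log2 fold change 2.61, standard error 0.36, adjusted p = 7.54e-07). Of 10 mast cell markers 1 was higher, the receptor Kit (1.40), and 1 lower. Both shares were below the 29.0 and 27.6% of all genes, so these counts are no result about the list. Without control replicate 3, however, 6 were higher, with a median of 2.64 in place of 1.03, and 4 were higher with the covariate and 3 with library size alone. The member that fell, chosen here after its values were seen, was Hpgds, the prostaglandin D2 synthase that the compound of this series inhibits. It was counted at 7.08, 4.37 and 0.653 CPM in control and 2.003, 0.822, 1.03, 1.77 and 1.79 CPM at 7 days, overlapping between the groups because control replicate 4 was lowest (log2 fold change -1.46, standard error 0.50, adjusted p = 0.0121). The test missed its threshold for Hpgds when control replicate 2 was left out (adjusted p = 0.169), with library size alone (adjusted p = 0.0994) and in a fit of the 8 tendons alone (adjusted p = 0.0564).

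Activated fibroblast markers were higher in 14 of 19 and lower in none, with the cadherin Cdh11 at 13.2, 10.1 and 15.2 CPM in control and 105.3, 169, 199.7, 157.7 and 143.8 CPM at 7 days (log2 fold change 3.60, standard error 0.31, adjusted p = 5.47e-10), and without control replicate 4 in 9 of 19. Endothelial markers were higher in 8 of 23 and lower in 2, with the share of higher members near the 29.0% of all genes, and 5 were higher without control replicate 2 and 18 with library size alone. Without control replicate 3 none was lower. The adhesion molecule Selp was counted at 1.94, 19.6 and 5.55 CPM in control and 68.4, 42.9, 61.05, 47.3 and 44.6 CPM at 7 days and rose by 2.53, while Prox1, the factor of lymphatic endothelium, fell by 1.27 (adjusted p = 0.012, and 0.0888 without control replicate 3 and 0.156 with library size alone). Contractile genes of smooth muscle and myofibroblasts had 6 of 16 higher and 3 lower, and 10 higher with library size alone. The shares over all genes were 29.0 and 27.6%, so these counts are no result about the list. Smooth muscle actin (Acta2) was counted at 32.1, 98.8 and 59.5 CPM in control and 157, 138, 241.7, 263.3 and 99.8 CPM at 7 days (log2 fold change 1.503, standard error 0.37, adjusted p = 0.000882), without overlap, and Tagln rose by 1.85. The 3 that fell, Des, Abcc9 and Lmod1, had r of 0.98, 0.92 and 0.78, and Lmod1 missed the threshold with library size alone (adjusted p = 0.0835).

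Markers of other tissues in the piece were mixed. For the counts below, the shares over all genes were 29.0% higher and 27.6% lower. Adipocyte genes were higher in 7 of 16 and lower in 1. The count of higher genes was 2 without control replicate 2, 3 without control replicate 4, 3 and 4 without 7D 0 mg/kg replicates 2 and 3, and 13 with library size alone. Adiponectin (Adipoq) was counted at 38.3, 105.2 and 47.4 CPM in control and 212.8, 250.5, 283.4, 78.5 and 139.9 CPM at 7 days (log2 fold change 1.60, standard error 0.65, adjusted p = 0.0309), overlapping between the groups. Its adjusted p was 0.139 and 0.119 without control replicates 2 and 4, and 0.0529 and 0.0619 without 7D 0 mg/kg replicates 2 and 3. Of 11 Schwann cell markers 2 were higher, Egr2 being 1 of them, 4 in a fit of the 8 tendons alone and 7 with library size alone. Of 7 erythroid genes 1 was higher. Of 6 osteoblast genes 3 were higher, Spp1 and the bone factor Runx2 among them, and 2 lower. Runx2 was at 1.67 on the log2 scale, and at 0.71 with the covariate (adjusted p = 0.108), not past the threshold. Among the lower was Mepe, a matrix protein of osteocytes, at 3.21, 24.8 and 11.8 CPM in control and 0.192, 0.0274, 0.0559, 0.609 and 0.0496 CPM at 7 days (log2 fold change -6.15, standard error 1.16, adjusted p = 4.46e-05). Mepe had an r of 0.75, and in the covariate fit its log2 fold change of -2.44 was not past the threshold and 1 member of the list was higher and 1 lower. Of 7 epidermal genes 2 were lower, 4 in a fit of the 8 tendons alone and none without control replicate 3. The 2 are keratins counted almost wholly in 1 control tendon: Krt15 was at 0.0472, 51.4 and 0 CPM and Krt5 at 0, 11.3 and 0 CPM in control replicates 2, 3 and 4, and no 7D 0 mg/kg tendon was above 0.0822 CPM. Krt15 thus had a larger fitted decrease (-9.38) than the genes without overlap named above. The calls of both as lower (adjusted p = 0.00479 and 0.0278) rest on control replicate 3, and without it the adjusted p were 0.962 and 0.786.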

How the data were processed

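RNA from the right plantaris tendon of each rat (RNA integrity number above 8, per the study's methods) was made into single-end libraries, and the submitters' processing notes name FastQC, STAR and edgeR without versions. Per the study's methods, reads were mapped to the rat genome build RN6 with its Ensembl annotation. The authors deposited 1 table of raw counts, whole numbers of reads per gene for 13124 genes in 30 tendons, with no normalization. Whether reads were counted by strand, and how reads shared between related genes were counted, is not given in the sources used here. The deposited table of the authors' own comparisons, which holds fold changes and p-values, was not used. No per-sample column was left out (0). The authors removed some samples for read quality before deposit, among them control tendons. Certain items are not reported here.

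Groups were taken from the labels, and replicates are separate rats. The filter kept 12558 genes, those whose mean reached 3 CPM in 1 group or more, and removed 566. A gene near 0 in control was thus tested only if it was higher in another group. Counts of higher members in lists of genes low in control are therefore partly set by the filter. Counts were scaled by TMM and fitted over all 30 tendons with a mean for each of the groups by edgeR's quasi-likelihood test (edgeR 4.0.16, R 4.3.3). Benjamini-Hochberg adjustment was over all genes kept. A prior count of 2 entered only the log2 CPM used for r, limma and correlations between tendons, and not the fitted fold changes. A gene was called at an adjusted p under 0.05 and at least a 1.5-fold change. The 49 gene lists and the genes named were chosen with earlier results of these data known. Genes named were, among called genes with at least 10 CPM in the higher group, the 10 largest increases and decreases without overlap, the 10 largest such decreases with r under 0.3 that were on no muscle list, up to 4 genes in each direction in each list, and 22 of 24 lead members that were tested. Hpgds was named outside this rule. Library totals of the 8 tendons were 20446525 to 38449256 counts. Intervals (95%, exact) and floors of 3 counts cover counting error only, since no molecular identifiers were used and PCR copies cannot be told from separate molecules.

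Alternatives were other scaling, filters, samples, tests (DESeq2 1.42.0, limma 3.58.1), a replicate block, thresholds on r, and each tendon left out. The scripts were tested on simulated data. Promoter windows are those of RefSeq on build GRCr8, matched by gene symbol. Chromosomes of genes follow the RN6 annotation in the deposited table.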

Additional observations from a re-analysis of the deposited data

Results flagged for a closer look

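In 17 of 161 values screened, 1 of the 5 tendons of the 7D 0 mg/kg group lay far from the other 4, its gap to the nearest taking more than 0.71 of the whole range. For normally distributed values chance gives about 1 such group in 20. CPM was screened without a log and may be skewed to high values, so the 17 of 161 are not measured against that rate. The value of the outlying tendon is given before that of the nearest tendon. Replicate 1 was the highest for Ccl9 (397 compared to 125 CPM), Cytl1 (39.3 compared to 16.9 CPM), Egln3 (26.1 compared to 10.4 CPM), Egr2 (48.0 compared to 27.8 CPM) and Pfkp (61.4 compared to 44.2 CPM). It was the lowest for Col5a1 (949 compared to 2303 CPM). Replicate 2 was the highest for Aqp4 (1.40 compared to 0.174 CPM) and Ostn (7.84 compared to 1.07 CPM). Replicate 3 was the highest for Acod1 (50.3 compared to 8.39 CPM), Cxcl6 (83.3 compared to 15.1 CPM), Isg15 (90.3 compared to 25.5 CPM), Mmp13 (110 compared to 21.1 CPM) and Mx1 (166 compared to 28.7 CPM). Replicate 4 was the highest for Mepe (0.609 compared to 0.192 CPM) and Tigd4 (2.81 compared to 0.548 CPM). Replicate 5 was the highest for Angptl7 (48.8 compared to 22.6 CPM) and Chad (29.6 compared to 4.90 CPM). The 5 values of replicate 3 were of Acod1, Cxcl6, Isg15, Mmp13 and Mx1, genes of inflammation, interferon response and collagen cleavage, and the cause was not tested. Groups of 3 control tendons were not screened.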

How the results depend on the processing

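The counts of genes called stayed within 1.5 times of those reported, except where named here. With library size alone 6330 genes were higher and 1925 lower, and 792 of the lower genes did not follow the sarcomere level (2044 with TMM). With the sarcomere level as a covariate 2242 were higher. Leaving out each tendon in turn gave 3048 to 3795 higher and 3354 to 3737 lower genes, 1382 to 1442 that followed the sarcomere level and 1972 to 2295 that did not. The difference in sarcomere share was -19.06 to -16.43 percentage points, with p of 0.0571 to 0.0952, the smallest those designs allow. The log2 fold change of Dcn reversed to 0.40 with library size alone and 0.15 without control replicate 2, and that of Krt5 to 3.22 without control replicate 3. Over all tendons left out in turn Dcn lay between -0.53 and 0.15 and Krt5 between -7.37 and 3.22. Of 76 list counts, RLE scaling moved 0 by over 1.5 times, library size alone 23 and the covariate 38, and leaving out a tendon moved 2 to 10. Leaving out a tendon also leaves fewer for the test, and the causes of these shifts were not tested.

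Same-numbered control and 7D 0 mg/kg tendons had correlations of deviations of -0.007, 0.07 and 0.141, and not every tendon correlated best with its own number, so the numbers give no pairing. With the replicate block 3694 genes were higher and 3448 lower, and 1432 followed the sarcomere level and 2016 did not. Of 157 named genes, Krt5 lost its call under the block (adjusted p = 0.0869). With 3 control tendons, 1 of which stood apart, small differences in low genes were not detectable at this depth and number.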

Other observations

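In the 7 tendons at 7 days from rats given GSK2894631A, which belong to none of the comparisons above, the sarcomere share of counts was 0.00878 to 0.0110%, compared to 0.169 to 1.10% in the 5 7D 0 mg/kg tendons. The share thus differed among repaired tendons of the same day, and the cause was not tested.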
